A study of Homo sapiens with 6 samples.

Results

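The SWI/SNF chromatin remodelling subunits were followed across an RNA-seq comparison of MV4-11 cells, an established acute myeloid leukaemia line with an internal tandem duplication of FLT3. They were the 10 genes SMARCA2, SMARCA4, SMARCB1, SMARCC1, SMARCC2, SMARCD1, SMARCD2, ARID1A, ARID1B and ARID2, chosen by symbol because the complex is a reported partner of PRMT5. Each of the 10 matched exactly 1 of the 23698 gene rows in the deposited tables, and each was among the 13668 genes tested. In 3 libraries the cells had been stably transduced, by lentivirus, with a short hairpin RNA against PRMT5, and in the other 3 with a scrambled vector control. All 6 libraries thus came from transduced cells of 1 line, and the labels name neither the hairpin's sequence nor any separate cultures or clones.

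SWI/SNF complexes use the energy of ATP to slide or eject nucleosomes, and so open promoters and enhancers to transcription factors. Each complex holds 1 ATPase, SMARCA4 (BRG1) or SMARCA2 (BRM). In the BAF and PBAF forms it works with a core that includes SMARCB1, a SMARCC pair and a SMARCD subunit, whereas the non-canonical form lacks SMARCB1. ARID1A or ARID1B marks the BAF form and ARID2 the PBAF form. In myeloid leukaemia cells, SMARCA4 is known for keeping MYC expression and self-renewal going. PRMT5, which makes symmetric dimethylarginine on histones and other proteins, has been found together with SMARCA4 and SMARCA2 complexes at repressed genes.

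The libraries held 16408484 to 19077106 estimated counts. PRMT5 itself was at 103, 71.6 and 53.0 CPM (read counts scaled to library size by TMM, a correction for library composition) in knockdown libraries 1 to 3, against 133, 53.2 and 158 CPM in control libraries 1 to 3. The log2 difference, knockdown minus control, was −0.60 (SE 0.43; edgeR adjusted p = 0.926), −0.94 without the library labelled scrambled control 2, and between −0.94 and −0.29 with each library left out in turn. The PRMT5 level of the library labelled scrambled control 2 lay within the knockdown range and so went against its label. Across genes, the log2 CPM of that library correlated at 0.876 to 0.923 with the other 5, which correlated with one another at 0.952 to 0.995. For this reason the main values of several subunits it moves are also given without it. Among the other 5, the highest correlation, 0.995, was between knockdown 3 and control 3, across the groups. Libraries of the same group among these 5 correlated at 0.955 to 0.969. Of 8 markers of myeloid leukaemia cells, CD33 (43.9 to 53.8 CPM), SPI1 (121 to 158 CPM) and FLT3 (283 to 515 CPM) were steadiest. MPO ran between 13.8 and 503 CPM, LYZ between 35.3 and 1270.0 CPM and CSF1R between 2.4 and 18.3 CPM, with MPO and LYZ lowest in the library labelled scrambled control 2. HOXA9 and MEIS1 were highest there, at 296 and 102 CPM, against at most 96.2 and 32.9 CPM elsewhere. The summed level of the 8 was 1170 to 2150 CPM with PRMT5 knockdown, against 1060 to 1900 CPM with the scrambled control. Summed levels of T and B cell markers stayed at or under 1.59 CPM, and CD3E, CD2 and HBB were at 0. Among epithelial markers KRT8 reached 27.6 CPM and among fibroblast markers COL1A1 reached 4.99 CPM, both in the library labelled scrambled control 2, while EPCAM and COL1A2 were at 0; the part of these signals in the results was not tested.

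None of the 10 subunits passed the test for a difference between PRMT5 knockdown and control libraries. In bulk RNA, fewer cells with a transcript and less of it per cell cannot be told apart. With edgeR's quasi-likelihood test, 0 of the 10 had an adjusted p under 0.05, against 0 of 13668 tested genes (0%). At an unadjusted p under 0.05 there were 0 members and 242 genes in all (1.77%). DESeq2 and limma-voom also called 0 genes, with 461 and 117 genes at an unadjusted p under 0.05. The log2 difference, knockdown minus control, was above 0 for 5 members and below 0 for 5 (49.9% of all tested genes were above 0), with a median of 0.037 beside −0.00069 over all tested genes. It lay within 0.5 of 0 for 9 of the 10. No member had all 3 knockdown libraries on one side of all 3 controls, as 6.24% of the tested genes did (3.14% with the knockdown libraries higher and 3.1% with them lower).

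**Figure D1:**
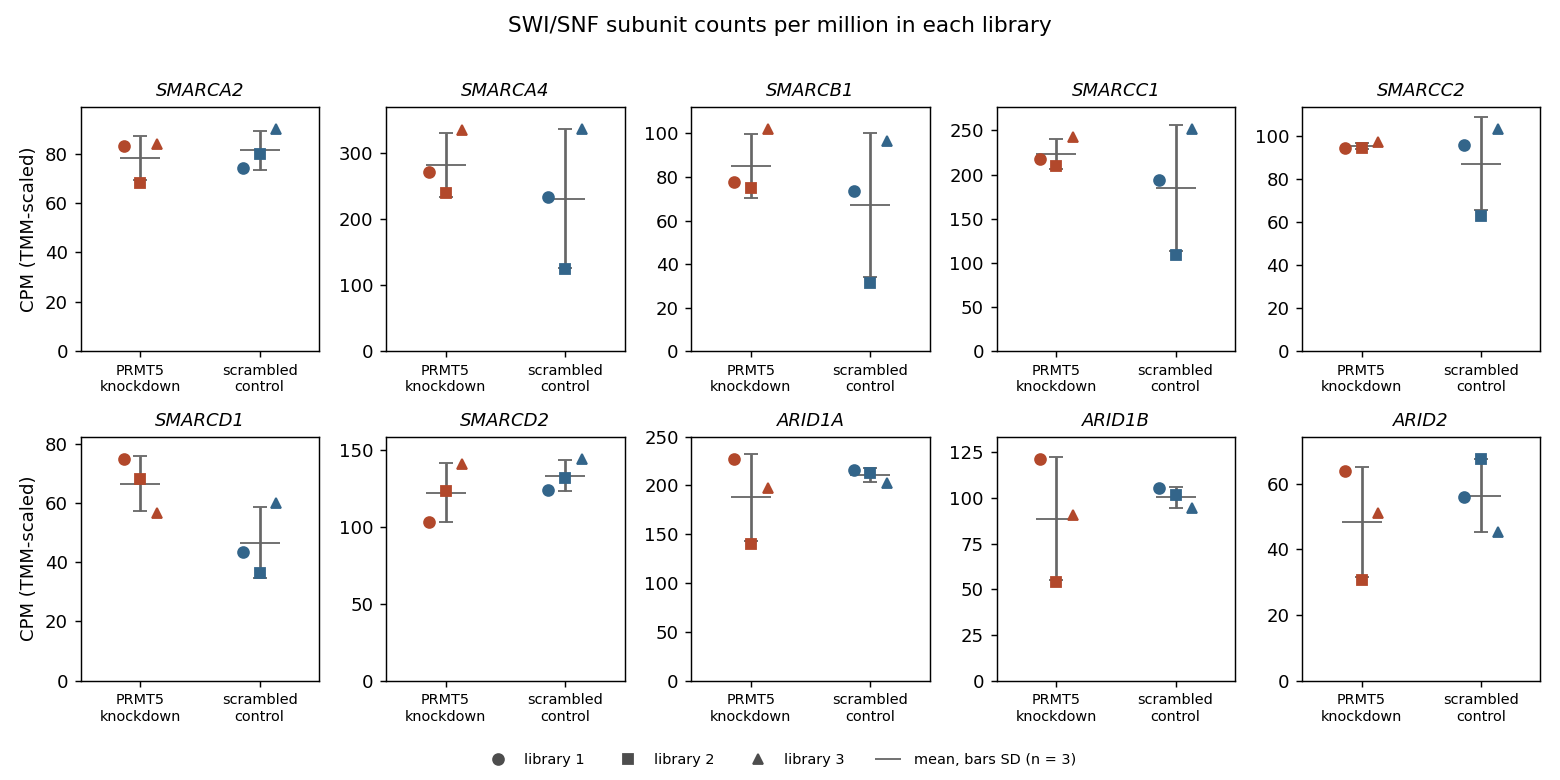
CPM (TMM-scaled, axes from 0) of each subunit in the 3 PRMT5 knockdown libraries (left, red) and the 3 scrambled control libraries (right, blue), with symbols for library numbers, and mean and SD as bars. The groups overlap in every panel; the square of the library labelled scrambled control 2 is the lowest point for SMARCA4, SMARCB1, SMARCC1, SMARCC2 and SMARCD1, and that of knockdown 2 for SMARCA2, ARID1A, ARID1B and ARID2.

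Neither ATPase passed the test, and their spread over the libraries is given side by side. SMARCA4, on chromosome 19, was at 271, 239 and 335 CPM in knockdown libraries 1 to 3, against 232, 124 and 335 CPM in control libraries 1 to 3. Its group ranges overlapped, and 1 library, the one labelled scrambled control 2, lay apart, below the other 5 by a factor of at least 1.87. The log2 difference was 0.29 (SE 0.36, 95% confidence interval −0.55 to 1.13; edgeR adjusted p = 0.926), and −0.0078 without that library. SMARCA2, on chromosome 9, was at 83.0, 68.0 and 84.0 CPM with PRMT5 knockdown, against 74.3, 79.8 and 89.9 CPM with the scrambled control. Those 6 values spanned a factor of 1.32, beside 2.70 for SMARCA4, and the highest was in control 3. SMARCA2 had a log2 difference of −0.05 (SE 0.20, 95% confidence interval −0.52 to 0.41; edgeR adjusted p = 0.965). The SD of its log2 CPM over the 6 libraries was 0.14, at percentile 5.43 of all tested genes, while that of SMARCA4 was 0.53, at percentile 66.3.

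Promoter sequences of both ATPase genes and of SMARCB1 are shown because SMARCA4 and SMARCB1 were low together in 1 library where SMARCA2 was not. They run from 250 bases before to 50 bases after a RefSeq transcription start (GRCh38.p14), 5′ to 3′ on the gene's strand, which is plus for all 3. Where RefSeq lists several starts, the most upstream is shown. Capitals mark each match on either strand to the GC box GGGCGG, the core bound by Sp-family factors. The positions are chr9:2015097-2015396 for SMARCA2, chr19:10960780-10961079 for SMARCA4 and chr22:23786716-23787015 for SMARCB1.
SMARCA2: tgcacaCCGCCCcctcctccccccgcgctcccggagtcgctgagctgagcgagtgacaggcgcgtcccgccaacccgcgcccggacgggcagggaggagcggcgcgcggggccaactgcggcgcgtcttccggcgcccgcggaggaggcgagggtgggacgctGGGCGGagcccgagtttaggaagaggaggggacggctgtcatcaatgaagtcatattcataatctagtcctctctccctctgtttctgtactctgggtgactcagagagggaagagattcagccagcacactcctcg
SMARCA4: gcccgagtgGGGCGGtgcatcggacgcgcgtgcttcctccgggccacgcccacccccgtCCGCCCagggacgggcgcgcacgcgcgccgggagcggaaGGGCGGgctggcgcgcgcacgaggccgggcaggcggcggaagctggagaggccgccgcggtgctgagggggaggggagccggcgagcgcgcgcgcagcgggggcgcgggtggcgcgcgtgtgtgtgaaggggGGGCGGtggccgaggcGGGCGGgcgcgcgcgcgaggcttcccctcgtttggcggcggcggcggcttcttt
SMARCB1: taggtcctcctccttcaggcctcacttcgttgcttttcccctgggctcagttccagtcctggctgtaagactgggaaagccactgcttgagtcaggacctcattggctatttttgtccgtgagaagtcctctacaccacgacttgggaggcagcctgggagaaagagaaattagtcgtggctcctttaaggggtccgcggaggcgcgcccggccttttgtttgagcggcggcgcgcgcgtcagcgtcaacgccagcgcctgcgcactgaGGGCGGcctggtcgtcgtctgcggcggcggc
The GC box occurred 2 times in the SMARCA2 window, 5 times in that of SMARCA4 and 1 time in that of SMARCB1. Of 35116 RefSeq promoter windows of this length, 45% held at least 1. GC content was 66.7%, 81.3% and 61.7% in the same order, with 30, 55 and 25 CpG dinucleotides. On either strand, the ETS core CCGGAAG, held by 10.3% of windows, matched 1 time in the SMARCA2 window and 0 times in the others. The CCAAT box, held by 34.6% of windows, matched 1 time in the SMARCB1 window and in neither ATPase window. Of the 10 members, 7 had entries in the promoter table, while SMARCC1, SMARCC2 and ARID2 had none. The GC box matched 2 times in the window of SMARCD1, also lowest in the library labelled scrambled control 2. It matched 1 time in the most upstream window of SMARCD2 and 2 times in the next. In the window of ARID1A it matched 3 times. For ARID1B it matched 0 times in the most upstream window and 4 times in the next. None of SMARCD2, ARID1A and ARID1B was lowest in the library labelled scrambled control 2. A link of these motifs to the library values was not tested.

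Of the core subunits, SMARCB1, SMARCC1, SMARCC2 and SMARCD1 had their lowest value in the same library as SMARCA4, and SMARCD2 did not. That library, labelled scrambled control 2, was the lowest for 36.7% of all tested genes and the highest for 34.4%. SMARCB1 (SNF5, BAF47), a core subunit that contacts the nucleosome and is lost in rhabdoid tumours, was at 77.8, 75.0 and 102 CPM with PRMT5 knockdown, against 73.4, 31.4 and 96.7 CPM with the scrambled control. It was the member with the widest span, a factor of 3.25, and the library labelled scrambled control 2 lay below the other 5 by at least 2.34-fold. A gap of 2-fold or more below the other 5 libraries was found there for 1057 of all tested genes (7.73%). The log2 difference of SMARCB1 was 0.34 (SE 0.40, 95% confidence interval −0.58 to 1.26; edgeR adjusted p = 0.926), and 0.00072 without that library. In the annotation, exons of SMARCB1 share 2923 bases with exons of DERL3 on the other strand, so reads there may belong to either gene.

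SMARCC1 (BAF155) and SMARCC2 (BAF170) form the scaffold dimer on which the complex is assembled. SMARCC1 was at 217, 210.2 and 242 CPM with PRMT5 knockdown, against 194, 109 and 251 CPM with the scrambled control. SMARCC2 was at 94.7, 94.5 and 97.2 CPM with PRMT5 knockdown, the narrowest group range of any member, against 95.8, 63.0 and 103 CPM in the controls. In both genes the control range enclosed the knockdown range, and the library labelled scrambled control 2 was the lowest of the 6. Their log2 differences were 0.27 (SE 0.31) and 0.13 (SE 0.24), and 0.0062 and −0.058 without that library, so that for SMARCC2 the sign turned. The edgeR adjusted p-values with all libraries were 0.926 and 0.929. The genes lie on chromosomes 3 (SMARCC1) and 12 (SMARCC2), and SMARCB1 on chromosome 22. SMARCC2 shares 514 exon bases with MYL6 on the other strand.

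SMARCD1 (BAF60A), which links the complex to transcription factors, had the largest difference and the smallest p of the 10. It was at 74.9, 68.0 and 56.6 CPM with PRMT5 knockdown, against 43.4, 36.5 and 59.9 CPM in the controls. Knockdown 1 and 2 lay above all 3 controls, and knockdown 3 lay below control 3. The log2 difference was 0.51 (SE 0.25, 95% confidence interval −0.08 to 1.1; edgeR unadjusted p = 0.080, adjusted p = 0.926). It was above 0 with each library left out in turn, between 0.37, without the library labelled scrambled control 2, and 0.74. SMARCB1, SMARCC1 and SMARCD2 also kept their sign with each library left out. Between libraries of the same number the log2 difference of SMARCD1 was 0.79, 0.90 and −0.08 for numbers 1 to 3. The log2 difference of PRMT5 between the same libraries was −0.36, 0.43 and −1.58. The labels do not state that same-numbered libraries are pairs, and a link of SMARCD1 to the PRMT5 level was not tested. SMARCD2 (BAF60B), a paralog known for its part in granulocyte maturation, was at 103, 123 and 141 CPM with PRMT5 knockdown, against 124, 132 and 144 CPM with the scrambled control. Its groups overlapped, with a log2 difference of −0.13 (SE 0.20, 95% confidence interval −0.60 to 0.35; edgeR adjusted p = 0.926), and the library labelled scrambled control 2 did not stand apart. SMARCD1 lies on chromosome 12 and SMARCD2 on 17.

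The ARID subunits, which recruit the complex to DNA and define its form, had their lowest values in knockdown 2. ARID1A (BAF250A), the subunit most often mutated in cancers, was at 227, 139.7 and 197 CPM with PRMT5 knockdown, against 216, 213 and 202 CPM with the scrambled control. ARID1B (BAF250B), its paralog, was at 121, 53.9 and 90.8 CPM with PRMT5 knockdown, against 105, 101 and 94.3 CPM with the scrambled control. ARID2 (BAF200), of the PBAF form, was at 63.7, 30.6 and 50.9 CPM with PRMT5 knockdown, against 56.1, 67.6 and 45.3 CPM with the scrambled control. In each of the 3, knockdown 2 held the lowest value, by at least 1.41-fold for ARID1A, 1.69-fold for ARID1B and 1.48-fold for ARID2, and knockdown 1 lay above knockdown 3. The log2 differences were −0.16 (SE 0.23), −0.18 (SE 0.30) and −0.22 (SE 0.31), with edgeR adjusted p-values of 0.926, 0.929 and 0.926. Without knockdown 2 they were 0.015, 0.083 and 0.028, so each sign turned. The 3 genes, on chromosomes 1, 6 and 12, have long transcripts, 8583, 10813 and 8642 bases at the longest. In knockdown 2 they deviated from the mean of the 6 libraries by −0.49, −0.77 and −0.73 on the log2 scale. Over the 995 tested genes whose longest transcript had 8 kilobases or more, the median deviation in knockdown 2 was 0.0274. The part of transcript length in the low ARID values was not tested.

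The library labelled scrambled control 2 was the lowest of the 6 for 5 of the 10 members, as for 36.7% of all tested genes. Knockdown 2 was the lowest for 4 of the 10, and for 12.9% of all tested genes. These counts describe 2 single libraries, and no test was made of them. Among the 21 further subunits listed, 17 were tested, and the library labelled scrambled control 2 was the lowest for 8 and the highest for 6 of these (34.4% of all tested genes were highest there). Knockdown 2 was the lowest for 3 of the 17. Between libraries numbered 1, 2 and 3, the log2 difference was 0.23, 0.95 and −0.00275 for SMARCA4, 0.16, −0.23 and −0.10 for SMARCA2, and 0.08, 1.25 and 0.08 for SMARCB1. It was 0.16, 0.95 and −0.05 for SMARCC1, −0.02, 0.58 and −0.09 for SMARCC2, and −0.27, −0.10 and −0.03 for SMARCD2. For ARID1A it was 0.07, −0.61 and −0.04, for ARID1B 0.20, −0.91 and −0.05, and for ARID2 0.18, −1.14 and 0.17. All 3 pairs thus had one sign for SMARCB1 and SMARCD2, and the pair numbered 2 had the widest difference for every member but SMARCD2.

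**Figure D2:**
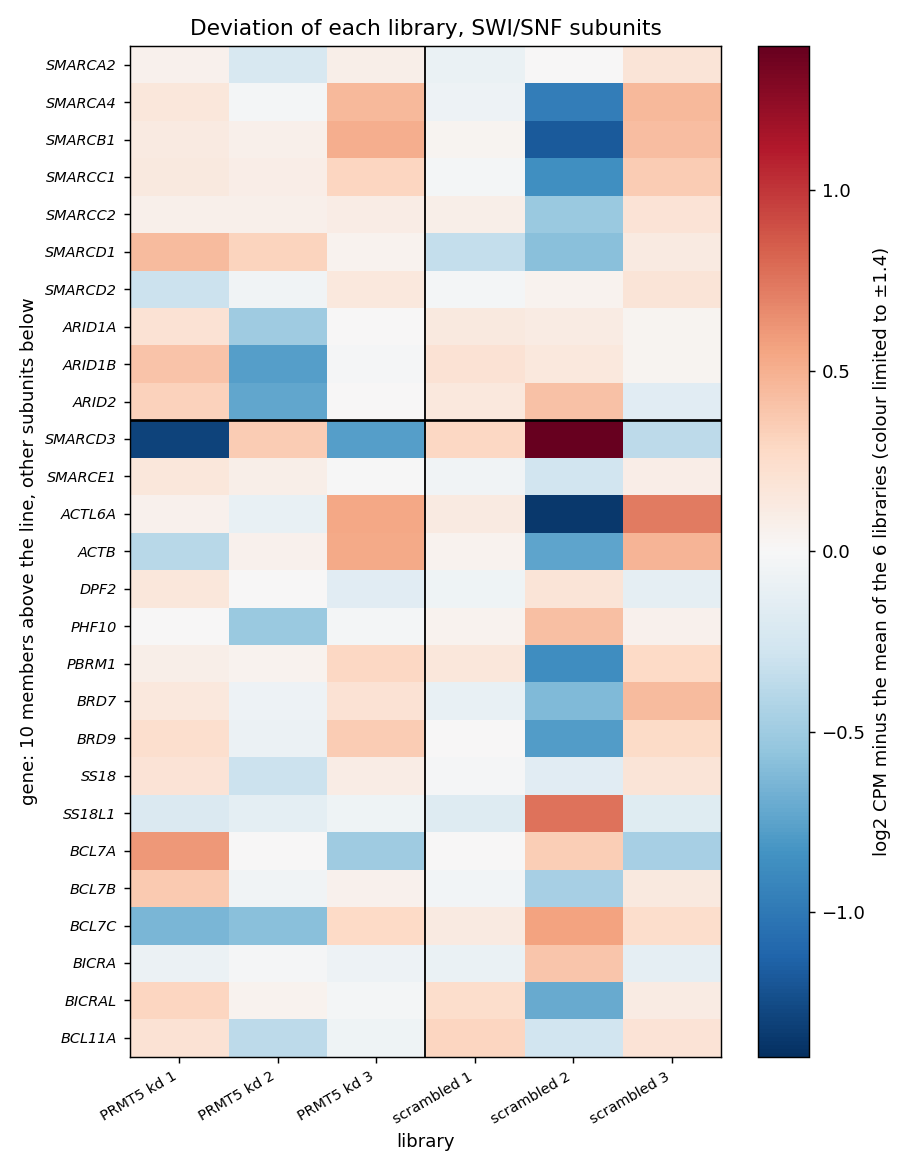
Deviation of each library's log2 CPM from the mean of the 6 libraries, for the 10 members (above the line) and 17 other tested SWI/SNF subunits; columns are PRMT5 knockdown 1 to 3, then scrambled control 1 to 3, and red is higher. The column of the library labelled scrambled control 2 is blue for ACTL6A at −1.35 and SMARCB1 at −1.18, and that of knockdown 2 is blue for the 3 ARID genes. The colour scale ends at 1.4, short of SMARCD3 at 1.79.

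The choice between paralogs was read as a ratio of counts within a library, which needs no scaling for depth. The SMARCA2 to SMARCA4 ratio was 0.306, 0.284 and 0.251 in knockdown libraries 1 to 3, against 0.320, 0.642 and 0.268 in control libraries 1 to 3. Outside the library labelled scrambled control 2 it lay between 0.251 and 0.320. Group means of the log2 ratio were −1.84 ± 0.14 in knockdown and −1.39 ± 0.67 in control libraries (SD, n = 3 each), a difference of −0.45, or −0.07 without that library (exact permutation test over all 6 libraries, two-sided, p = 0.4). With 3 libraries against 3 this test cannot give a p under 0.1. SMARCC2 to SMARCC1 was steadier, at 0.436, 0.450 and 0.401 in the knockdown libraries and 0.494, 0.577 and 0.411 in the controls (log2 difference −0.19, or −0.07 without that library, exact p = 0.3). Between same-numbered libraries the log2 ratio differed by −0.07, −1.18 and −0.10 for SMARCA2/SMARCA4 and by −0.18, −0.36 and −0.03 for SMARCC2/SMARCC1, below 0 in all 3 pairs of each. A sign-flip test over the pairs gave an exact p of 0.25 for both, the smallest that 3 pairs allow.

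Within the SMARCD family the ratio of SMARCD2 to SMARCD1 was 1.37, 1.81 and 2.49 in the knockdown libraries, against 2.86, 3.60 and 2.40 in the controls. Only knockdown 3 and control 3 kept the groups from separating, and these differed by 0.05 on the log2 scale. Mean log2 ratios were 0.88 ± 0.43 in knockdown and 1.54 ± 0.29 in control libraries (SD, n = 3 each; difference −0.67, exact permutation p = 0.2). Leaving out the library labelled scrambled control 2 gave −0.52. SMARCD3 (BAF60C), the family member known from heart and muscle, was near the floor, at 12.5 to 39.1 counts in the knockdown and 26.8 to 102 counts in the control libraries. Its ratio to SMARCD1 had a log2 difference of −1.74 (exact p = 0.2), and of −0.95 without that library, where its count was the highest. Between same-numbered libraries it was −2.49, −2.37 and −0.35, again below 0 in all 3 (exact sign-flip p = 0.25), whereas SMARCD2/SMARCD1 was −1.06, −0.99 and 0.05.

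ARID1B to ARID1A spanned the smallest factor of the 6 ratios, 1.39, at 0.534, 0.386 and 0.461 in the knockdown libraries and 0.487, 0.477 and 0.466 in the controls (log2 difference −0.06, exact p = 0.7). The SD of the log2 ratio was 0.24 over the knockdown and 0.03 over the control libraries. ARID2 to ARID1A was 0.280, 0.219 and 0.258 in the knockdown and 0.259, 0.318 and 0.224 in the control libraries (log2 difference −0.07, exact p = 0.7). Over the 6 ratios compared, the smallest Benjamini-Hochberg adjusted value of these exact tests was 0.6.

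**Figure D3:**
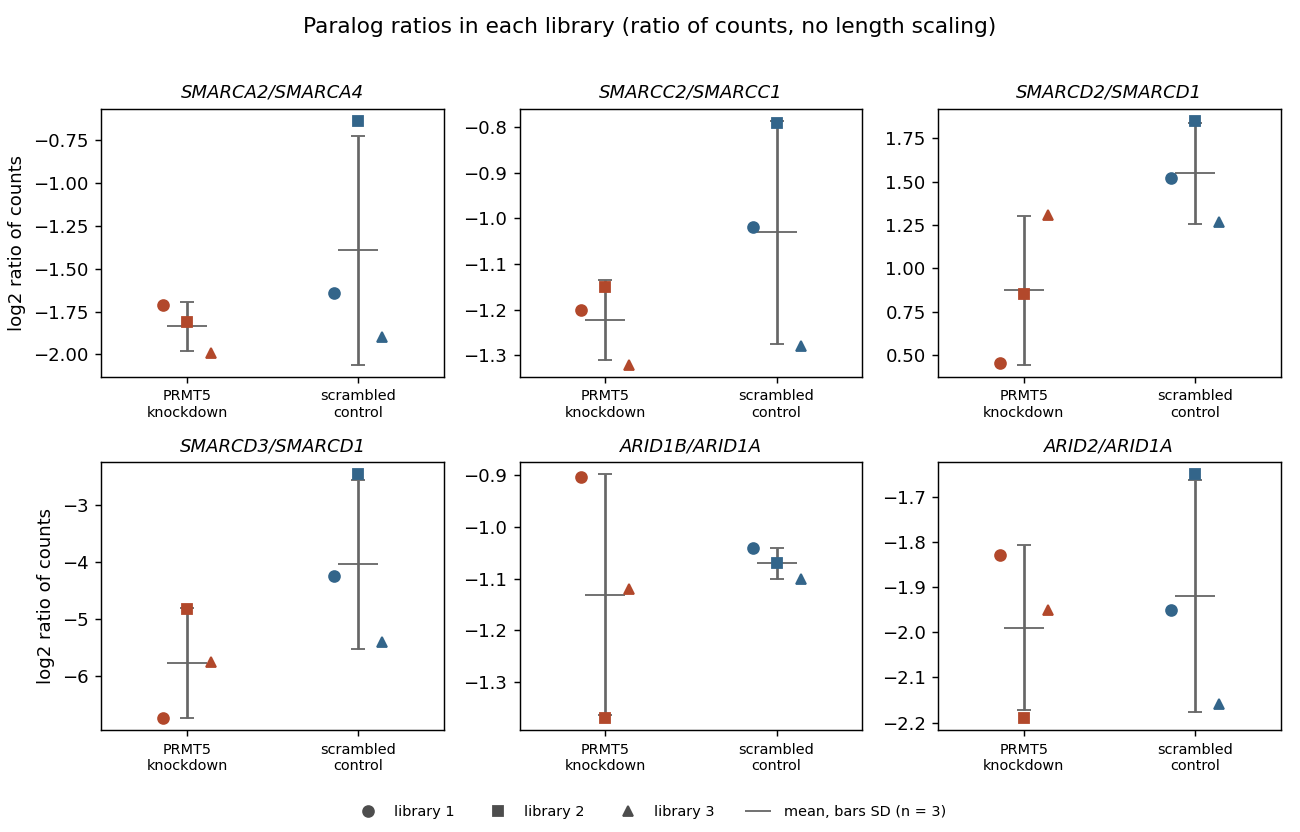
Log2 ratio of counts of the paralog pairs named above each panel, in PRMT5 knockdown (left) and scrambled control libraries (right), with mean and SD (n = 3); the vertical scales differ between panels and do not start at 0. The square of the library labelled scrambled control 2 is the highest point in 5 panels, the exception being ARID1B/ARID1A, and SMARCD2/SMARCD1 in knockdown 1 and 2 lies under all 3 controls.

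Levels of different genes were compared per kilobase of transcript (CPM divided by the length of the longest annotated transcript, GENCODE release 29). With this length SMARCA4 was above SMARCA2 in all 6 libraries. It was at 48.7 ± 8.38 in knockdown and 39.8 ± 18.2 CPM per kilobase in control libraries (SD, n = 3 each), beside 11.1 ± 1.27 and 11.5 ± 1.12 for SMARCA2. SMARCA2 thus made up 20.1%, 18.9% and 17.1% of the per-length ATPase signal in knockdown 1 to 3, and 20.8%, 34.5% and 18.0% in controls 1 to 3. With principal transcripts as the length, the means were 21.7% in knockdown and 27.9% in control libraries, and with the merged exons of all transcripts 19.2% and 25.1%. With the median transcript length (752.5 bases for SMARCA2 and 3715 for SMARCA4, against 7061 and 5791 for the longest), they were 58.0% and 64.7%. SMARCA4 was thus above SMARCA2 with every length used except the median.

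In the order of the per-length mean over 6 libraries, SMARCD2 (47.0 CPM per kilobase) was followed by SMARCA4 (44.2) and SMARCC1 (32.0). ARID1A (23.2), SMARCC2 (21.4), SMARCD1 (15.5) and SMARCB1 (14.6) came next, and SMARCA2 (11.3), ARID1B (8.74) and ARID2 (6.06) last. Neighbours in this order often did not differ beyond their spread: SMARCD2 exceeded SMARCA4 in 3 of 6 libraries, ARID1A exceeded SMARCC2 in 4 and SMARCD1 exceeded SMARCB1 in 3. SMARCA4 was above SMARCC1, SMARCC2 above SMARCD1, SMARCA2 above ARID1B and ARID1B above ARID2 in all 6. The level of SMARCB1 was 14.6 with its longest transcript of 5210 bases and 44.3 with its median transcript length of 1717 bases. Median lengths raised every other member too, with SMARCA4 at 68.97 and SMARCA2 at 106.1. With them SMARCB1 was above ARID1B and ARID2 only, whereas with the longest transcripts it was also above SMARCA2. SMARCC2 made up 39.0% ± 1.4 of the SMARCC signal in knockdown and 42.3% ± 4.13 in control libraries. SMARCD1 made up 28.8% ± 6.04 of the SMARCD signal in knockdown and 20.0% ± 3.55 in control libraries. ARID1B made up 26.7% ± 3.17 of the ARID1 signal in knockdown and 27.5% ± 0.446 in control libraries (SD, n = 3 for each).

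**Figure D4:**
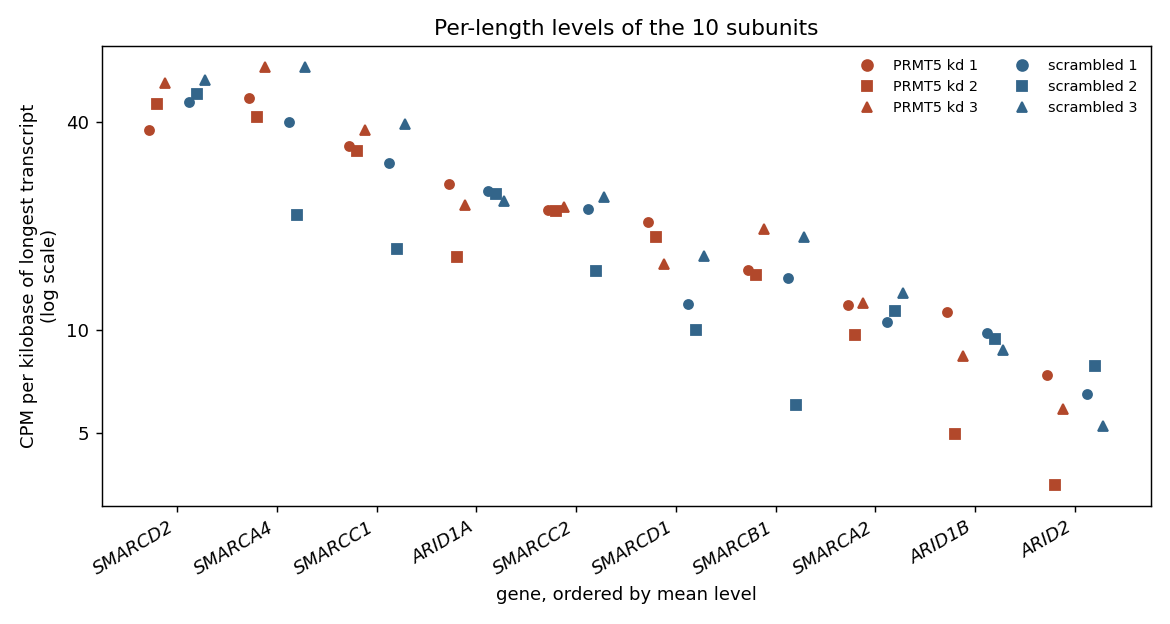
CPM per kilobase of the longest annotated transcript (log axis) of the 10 subunits, ordered by mean; red points are PRMT5 knockdown, blue points scrambled control libraries, with symbols for library numbers. SMARCD2 and SMARCA4 are highest and ARID2 lowest, and the square of the library labelled scrambled control 2 falls away for SMARCA4, SMARCC1 and SMARCB1.

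Of the 21 further SWI/SNF genes, 17 were tested and 0 passed, with 11 log2 differences above 0 and 6 below and a median of 0.10. The median was −0.068 without the library labelled scrambled control 2, and −0.016 with both libraries numbered 2 left out. ACTL6A (BAF53A), an actin-like protein shared by the forms, was at 76.3, 68.3 and 107 CPM with PRMT5 knockdown, against 79.8, 28.7 and 121 CPM with the scrambled control. Its log2 difference was 0.13 (SE 0.48). Its mean was 83.9 CPM with knockdown, against 76.5 CPM in all 3 controls and 100.4 CPM in the other 2. It was thus low in the library where SMARCA4 and SMARCB1 were low. SMARCE1 (BAF57), an HMG-box protein, was at 123 to 138 CPM in knockdown and 102 to 132 CPM in control libraries (log2 difference 0.15). ACTB, the actin gene whose protein is also a subunit, had 0.10 (SE 0.39).

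PBAF holds PBRM1 (BAF180), a protein with bromodomains, with BRD7 and PHF10. PBRM1 was at 98.0, 96.0 and 113 CPM with PRMT5 knockdown, against 104, 50.7 and 113 CPM with the scrambled control, so it too was lowest in the library labelled scrambled control 2. BRD7 had a log2 difference of 0.13 (SE 0.29), and 42.3% of its merged exon bases overlap ADCY7 on the other strand. PHF10 (BAF45A) was at 139.9, 97.3 and 137 CPM with PRMT5 knockdown, against 144, 186 and 145 CPM with the scrambled control. It was the 1 tested gene of the 17 whose groups did not overlap (6.24% of all tested genes). Its log2 difference was −0.35 (SE 0.23, edgeR adjusted p = 0.926). Between same-numbered libraries this was −0.04, −0.94 and −0.09 for numbers 1 to 3, and knockdown 1 and control 1 were close.

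BRD9 and the homologues BICRA and BICRAL, listed in the tables as GLTSCR1 and KIAA0240, belong to the non-canonical form. BRD9 was at 103, 83.2 and 112 CPM with PRMT5 knockdown, against 87.9, 51.2 and 106 CPM with the scrambled control (log2 difference 0.29, SE 0.30). BICRA had −0.13 and BICRAL 0.18. Of the SS18 and BCL7 accessory subunits, SS18, SS18L1, BCL7A, BCL7B and BCL7C had 0.0067, −0.34, 0.10, 0.24 and −0.58. SS18L1 was at 29.8 to 32.9 CPM in 5 libraries and 58.0 CPM in the one labelled scrambled control 2. Its paralog SS18 was at 55.3 CPM there and lowest in knockdown 2. DPF2 (BAF45D), the ubiquitous DPF subunit, had a log2 difference of 0.0055, and BCL11A, a zinc-finger subunit of blood cells, one of −0.15. The neuronal subunit ACTL6B was at 0 in all 6 libraries, and DPF1, DPF3 and BCL11B, a T-cell and neuronal subunit, had at most 13.0 counts in any library and were not tested.

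**Figure D5:**
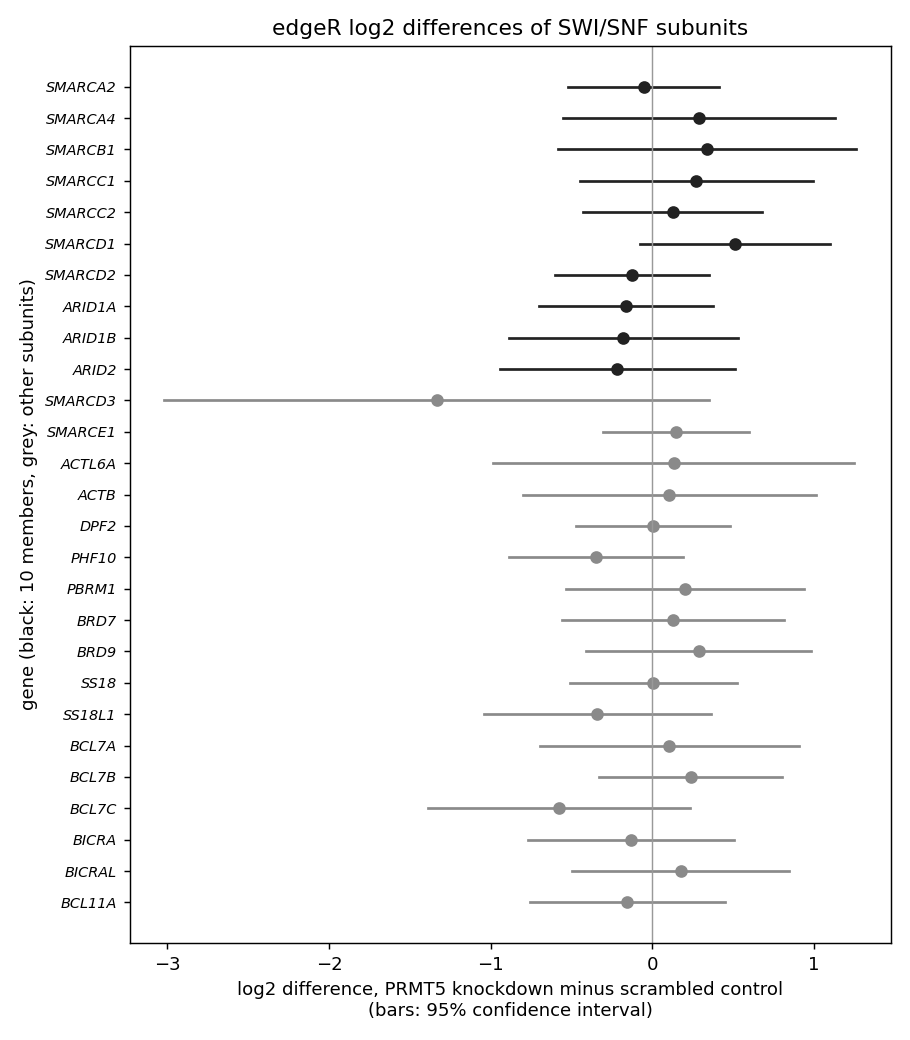
Log2 differences, PRMT5 knockdown minus scrambled control, with 95% confidence intervals from the edgeR fit, for the 10 members (black) and 17 other tested subunits (grey). Every interval includes 0; SMARCD1, at 0.51, has the lower bound closest to 0 among members, and SMARCD3, at −1.33, has the widest interval.

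Genes whose 6 library values ran closest to those of the ATPases were found by the root mean square difference between centred log2 CPM values, over 11056 other genes averaging 5 CPM or more. For SMARCA2 these were MRPS5, CCDC12 and DRG1, at 0.030, 0.035 and 0.035, against a median of 0.35 over all genes compared. For SMARCA4 they were AP1B1, AQR and CLTB, at 0.042, 0.048 and 0.052, against a median of 0.52. AQR, for example, was at 66.0, 59.0 and 82.0 CPM with PRMT5 knockdown, against 61.0, 32.3 and 81.0 CPM with the scrambled control. It was low in the same library as SMARCA4, which follows from its choice by nearness.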

How the data were processed

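MV4-11 total RNA was selected for poly(A) and sequenced, per the labels' protocols. Each library has 1 deposited table of estimated counts per gene, unscaled. According to the submitters' processing notes, hg19, edgeR, TopHat2 (version 2) and CASAVA 1.9 were used. Which program counted reads, on which annotation, and whether strand was used, is not given in the sources used here, so overlapping genes can share reads. Many values are fractions, nearly all of them whole after multiplying by 51, and all were rounded to whole numbers before testing.

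Genes passing filterByExpr (minimum count 10) went into edgeR 4.0.16 (R 4.3.3; TMM scaling, glmQLFit, glmQLFTest, group as the only term, two-sided), with Benjamini-Hochberg adjustment over all 13668 genes and a threshold of 0.05. SEs and 95% intervals come from that fit; library deviations use log2 CPM with a prior count of 2. Paralog ratios used counts plus 0.5 and exact permutation over libraries (SciPy 1.17.1). Lengths came from GENCODE release 29 (GRCh38), matched by symbol for 89.6% of tested genes, and only lengths and exon overlaps were taken from it; promoters came from RefSeq's table. Members had 484 to 6476 counts in a library, so counting error was small; lacking molecular identifiers, reads may be copies of one molecule.

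Members, lists and tests were chosen with earlier results of these data known. Named genes were all members, all listed further subunits, PRMT5, in other lists those at an unadjusted p under 0.05 and the 2 smallest p-values, and the 3 nearest genes of each ATPase. Separate cultures are not stated for the replicates, so the p-values cover the spread between these libraries, and that spread may be technical. The titles number both groups 1 to 3. Deviations of same-numbered libraries from their group means correlated at 0.127, 0.394 and 0.566 across genes, each above 0.1, so the fit with the number as a block is given beside the unpaired one; this rests on the values, not the labels, and knockdown 2 with control 1 correlated at 0.164, above the pair numbered 1. Alternatives were 3 other scalings (total counts, RLE, upper quartile), 2 other filters, DESeq2 1.42.0, limma-voom 3.58.1, the replicate block, leaving out libraries, and other transcript lengths.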

Additional observations from a re-analysis of the deposited data

How the results depend on the processing

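No member and no other gene passed an adjusted p under 0.05 under any scaling, filter, tool, block or left-out library tried. Log2 differences of all 10 members kept their sign under the 3 other scalings, both other filters, DESeq2, limma-voom and the replicate block. With the replicate block SMARCA4, SMARCB1 and SMARCC1 had 0.39, 0.46 and 0.35, and SMARCD1 0.53. The block changed no call (0 genes at an adjusted p under 0.05, with 436 at an unadjusted p under 0.05 against 242 without it). Each number occurs once in each group, so the block cannot change the mean differences of the 6 paralog ratios (−0.445, −0.192, −0.668, −1.74, −0.0637 and −0.0722, log2). Their equality is therefore no check, and the sign-flip test of the block cannot give a p under 0.25. With both libraries numbered 2 left out, SMARCA2 (0.024), SMARCC2 (−0.055), ARID1A (0.019), ARID1B (0.087) and ARID2 (0.18) turned, as did ARID1B/ARID1A (0.0581) and ARID2/ARID1A (0.16), and the median of the other remodelling ATPases was −0.02. The causes were not tested.

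Leaving out 1 library at a time gave log2 differences of −0.11 to 0.04 for SMARCA2, −0.0078 to 0.66 for SMARCA4, 0.00072 to 0.70 for SMARCB1, 0.0062 to 0.56 for SMARCC1, −0.058 to 0.27 for SMARCC2, 0.37 to 0.74 for SMARCD1 and −0.24 to −0.021 for SMARCD2. It gave −0.33 to 0.015 for ARID1A, −0.48 to 0.083 for ARID1B and −0.47 to 0.028 for ARID2. List medians ran from −0.061 to 0.15 for the members, −0.084 to 0.14 for further subunits, −0.087 to 0.046 for other ATPases and −0.21 to −0.033 for Polycomb genes. Ratios ran from −0.698 to −0.0678 for SMARCA2/SMARCA4, −0.318 to −0.0729 for SMARCC2/SMARCC1, −0.887 to −0.458 for SMARCD2/SMARCD1, −2.42 to −0.95 for SMARCD3/SMARCD1, −0.178 to 0.0574 for ARID1B/ARID1A and −0.192 to 0.0613 for ARID2/ARID1A.

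Per-length shares, as means over 6 libraries, moved with the length used. For SMARCA2 among the ATPases the share was 21.6% with the longest and 61.4% with the median transcript, and 22.1% with merged exons and 24.8% with the principal transcript. For SMARCC2 it was 40.6%, 23.5% with the median and 29.1% with merged exons. For SMARCD1 it was 24.4% and 34.2% with the median. For ARID1B it was 27.1%, 24.5% with the median, 14.3% with merged exons and 33.5% with the principal transcript, a length chosen after seeing the data.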

Other observations

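Genes of other remodelling families and of Polycomb repressive complex 2, which SWI/SNF is known to oppose at developmental genes, were read from the same edgeR fit. Of 18 ATPases of the ISWI, CHD, INO80 and related families, 17 were tested and 0 passed, with 9 log2 differences above 0 and 8 below and a median of 0.015. CHD3, an ATPase of the NuRD complex, was at 263, 304 and 308 CPM with PRMT5 knockdown, against 356, 492 and 310 CPM with the scrambled control. Its groups did not overlap, as for 6.24% of all tested genes, but knockdown 3 and control 3 were close (log2 difference −0.40, SE 0.24, edgeR adjusted p = 0.926). CHD6 had a log2 difference of −0.51 (SE 0.33).

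All 11 Polycomb genes were tested and 0 passed, with 3 above 0, 8 below and a median of −0.13. The catalytic subunit EZH2 had a log2 difference of −0.22 (SE 0.28), while SUZ12 and EED had −0.02 each. PHF1, a Polycomb-like accessory protein, was at 34.7, 39.0 and 36.9 CPM with PRMT5 knockdown, against 46.9, 359 and 38.6 CPM with the scrambled control. The library labelled scrambled control 2 held the high value, and the log2 difference of −2.01 had an unadjusted p of 0.043 and an adjusted p of 0.926 (edgeR). PHF1 averaged 36.9 CPM with knockdown, and 42.8 CPM in the other 2 controls. MTF2, another Polycomb-like protein, was at 45.9, 58.1 and 63.5 CPM with PRMT5 knockdown, against 65.8, 126 and 68.2 CPM with the scrambled control, without overlap (log2 difference −0.63, SE 0.31, edgeR adjusted p = 0.926). It averaged 55.8 CPM with knockdown, and 67.0 CPM in the controls other than the one labelled scrambled control 2. EZH1, EZH2's paralog, was at 33.1, 40.8 and 27.1 CPM with PRMT5 knockdown, against 40.7, 152 and 28.6 CPM with the scrambled control, or 33.7 CPM on average with knockdown and 34.6 CPM in controls 1 and 3. EZH1, EZH2, SUZ12 and EED, and JARID2, given for its separated groups, were picked after their values were seen. JARID2 was at 268, 201 and 293 CPM with PRMT5 knockdown, against 339, 325 and 297 CPM with the scrambled control. Its groups did not overlap either, but knockdown 3 and control 3 were close (log2 difference −0.33, SE 0.22, edgeR adjusted p = 0.926). The groups thus did not overlap for 2 of the 11 Polycomb genes, MTF2 and JARID2, beside 6.24% of all tested genes.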
